A study of Mus musculus with 8 samples.

Results

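Vascular endothelial cells share a set of genes for their junctions, surface, secreted matrix, transcription factors and signaling receptors, and the endothelium of the liver sinusoid adds its own scavenger receptors and lectins. Here 43 such identity genes were described, 32 of them pan-endothelial and 11 sinusoidal, which were taken by gene symbol from a list of known endothelial genes and found among the 22520 protein-coding genes of the table. All 43 had a row. They were grouped by role into 15 junction and surface genes, 4 secreted genes, 8 transcription factors, 5 signaling genes and the 11 sinusoidal genes.

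The values came from mRNA-seq of mouse liver cells, with 4 WT and 4 LRP1 eKO libraries. All mice were C57BL/6 at postnatal day 14 and carried both floxed alleles of the receptor gene Lrp1. WT mice were LRP1 f/f; Cdh5-CreER-/- littermates, and eKO mice were LRP1 f/f; Cdh5-CreER+/-. CreER is a Cre recombinase fused to an estrogen receptor domain that acts after tamoxifen, here under the promoter of Cdh5, and the agent and day of induction are not given for this experiment in the sources used here. The study isolated microvascular endothelial cells (ECs) with PECAM-1 antibody on magnetic beads, and the labels call the libraries liver microvesicular cells, without stating which libraries came from separate mice. The p-values therefore measure the spread between these libraries. Lrp1 itself averaged 65.5 ± 13.3 (SD, n = 4) under WT and 4.41 ± 1.65 (SD, n = 4) under LRP1 eKO, 6.74% of the former, and the libraries of each label followed their genotype. LRP1 eKO replicate 2 stood apart from its group for many of the genes described here, and the counts are given with and without it.

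Sinusoidal ECs line the capillaries of the liver and lack a continuous basement membrane. They clear waste molecules from blood with the stabilins (Stab1, Stab2), the mannose receptor Mrc1 and the Fc receptor Fcgr2b. In ECs generally, VE-cadherin (Cdh5) and PECAM-1 (Pecam1) hold neighboring cells together, and the ETS factors Erg and Fli1 with the SoxF factors Sox7, Sox17 and Sox18 maintain the endothelial program. Several of these genes are also known outside the endothelium. Mrc1, Fcgr2b, Stab1, Lyve1 and Cd93 are found in macrophages, Cd34 in fibroblasts, Gata4 and Podxl in the mesothelium, and Aqp1 in several epithelia.

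Most identity genes had low signals, with a few exceptions. The signal is a quantile-normalized expression value whose unit before normalization is not stated. A mean over the 8 libraries of at least 10 was reached by 5 genes, 19 genes lay between 1 and 10, and 19 lay below 1, of which 13 were below 1 in every library. The 5 highest were Cd34 (136), Gata4 (29.5), Eng (18.4), Esam (16.4) and Ecscr (11.7). Divided by the length of the longest transcript, the same 5 genes stayed the highest, with Cd34 at 44.4 and Eng at 5.37 per 1000 bases. Whether the signal already holds a division by length is not stated. Among genes with a mean of at least 5, the median signal was 28.2 in the fifth with the shortest transcripts and 12.3 in the longest. No member was listed at 0 in all libraries.

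The genes that define the cell type did not stand out among all genes. Pecam1, the antigen of the bead selection, had a WT mean of 2.09 ± 0.416 (SD, n = 4) and an LRP1 eKO mean of 3.02 ± 0.911 (SD, n = 4), and 56.0% of the genes in the table had a lower mean. Cdh5, whose promoter drives the Cre, measured 1.86 ± 0.430 (SD, n = 4) and 3.70 ± 1.34 (SD, n = 4), and 56.8% of genes lay below it. Erg averaged 0.447, Fli1 0.633 and Sox17 0.0696 over the 8 libraries.

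Markers of other cells were mixed on the same scale, and those of the mesothelium were far higher. All 5 mesothelial genes averaged above 100 over the 8 libraries, led by Msln, the surface protein mesothelin, with a WT mean of 1020 ± 125 (SD, n = 4) and an LRP1 eKO mean of 1305 ± 51.0 (SD, n = 4). The mean signal of Msln was 454 times that of Pecam1, with a range of 323 to 744 over the libraries, and the ratio was 722 if signals were divided by transcript length. Wt1, a transcription factor of the mesothelium, was 39.3 times as high as Pecam1, or 43.7 times after division by length. Other lists held both high and low genes. Among smooth muscle genes the actin gene Acta2 averaged 938 and the myosin gene Myh11 1.03, among stellate cell and fibroblast genes the collagen gene Col1a2 averaged 781 and the retinol acyltransferase gene Lrat 0.0794, and the median was 4.45 for macrophage genes. Some endothelial genes outside the 43 were also high, such as Tinagl1 (383), Cav1 (363) and Cavin2 (211), and Cav1 is known in many other cell types. The signals of Pecam1, Cdh5 and the endothelial transcription factors were thus low beside those of the mesothelial genes. In the same libraries, the Lrp1 signal under LRP1 eKO was 6.74% of WT. Esr1, the mouse estrogen receptor gene, lay between 12.0 and 12.7 under LRP1 eKO and between 0.165 and 0.258 under WT. CreER holds an estrogen receptor domain, and whether its RNA was counted as Esr1 was not tested. Which cells were sequenced was not tested. The 43 genes are therefore called identity genes by their known roles and not by the cells that were sequenced.

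**Figure D1:**
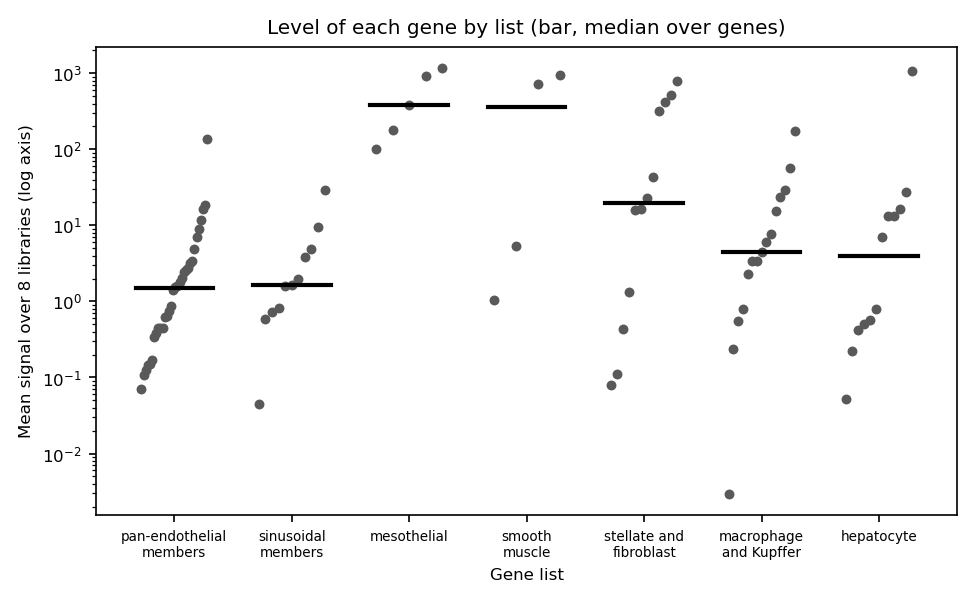
Mean quantile-normalized signal over the 8 libraries (log axis) of each gene in the pan-endothelial and sinusoidal lists and in lists of mesothelial, smooth muscle, stellate cell and fibroblast, macrophage and hepatocyte genes, with a bar at the median of each list. The medians were 1.49 for pan-endothelial and 1.65 for sinusoidal genes, 4.45 for macrophage, 3.96 for hepatocyte, 19.7 for stellate cell and fibroblast, 362 for smooth muscle and 383 for mesothelial genes, and Cd34 is the highest endothelial point at 136.

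The genotypes were compared by limma on log2(signal + 1) across the 11391 genes whose signal reached 1 in 4 or more libraries, and fold changes understate the change of genes with low signals. Of the identity genes, 23 passed this filter. Among them 8 rose in LRP1 eKO libraries at an adjusted p below 0.05 (Eng, Oit3, Ecscr, Calcrl, Cd34, Esam, Cdh5 and Cd93), where 19.0% of all genes tested rose. Only Podxl and Mmrn1 fell, where 22.2% of genes fell, and 13 genes did not pass the test. With a 2-fold change as a further condition, Cd93 and Oit3 remained as higher, against 0.869% of genes tested, and 0 were lower, against 0.79%. Oit3 passed the filter through the LRP1 eKO libraries alone and Calcrl through these and 1 WT library, so that their counts are no support for a difference from other genes. A positive fold change was found for 16 of the 23 genes, where 48.4% of genes tested had one. The median log2 fold change of the 23 genes was 0.25, beside -0.0095 for all genes tested. In these bulk libraries, a larger share of cells of a type and more RNA per cell cannot be told apart.

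The remaining 20 genes were too low for the filter and were fitted without it, over 17959 genes. In that fit, over all 43 identity genes, 9 rose (12.0% of genes rose) and 3 fell (15.3% of genes fell), 32 had a positive fold change, where 48.9% of genes did, and the median was 0.22 beside -0.0021 for all genes. The signals of the groups did not overlap for 12 of the 43 identity genes, 9 higher and 3 lower in LRP1 eKO libraries, against 32.0% of genes in that fit and 42.6% of those past the filter.

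**Figure D2:**
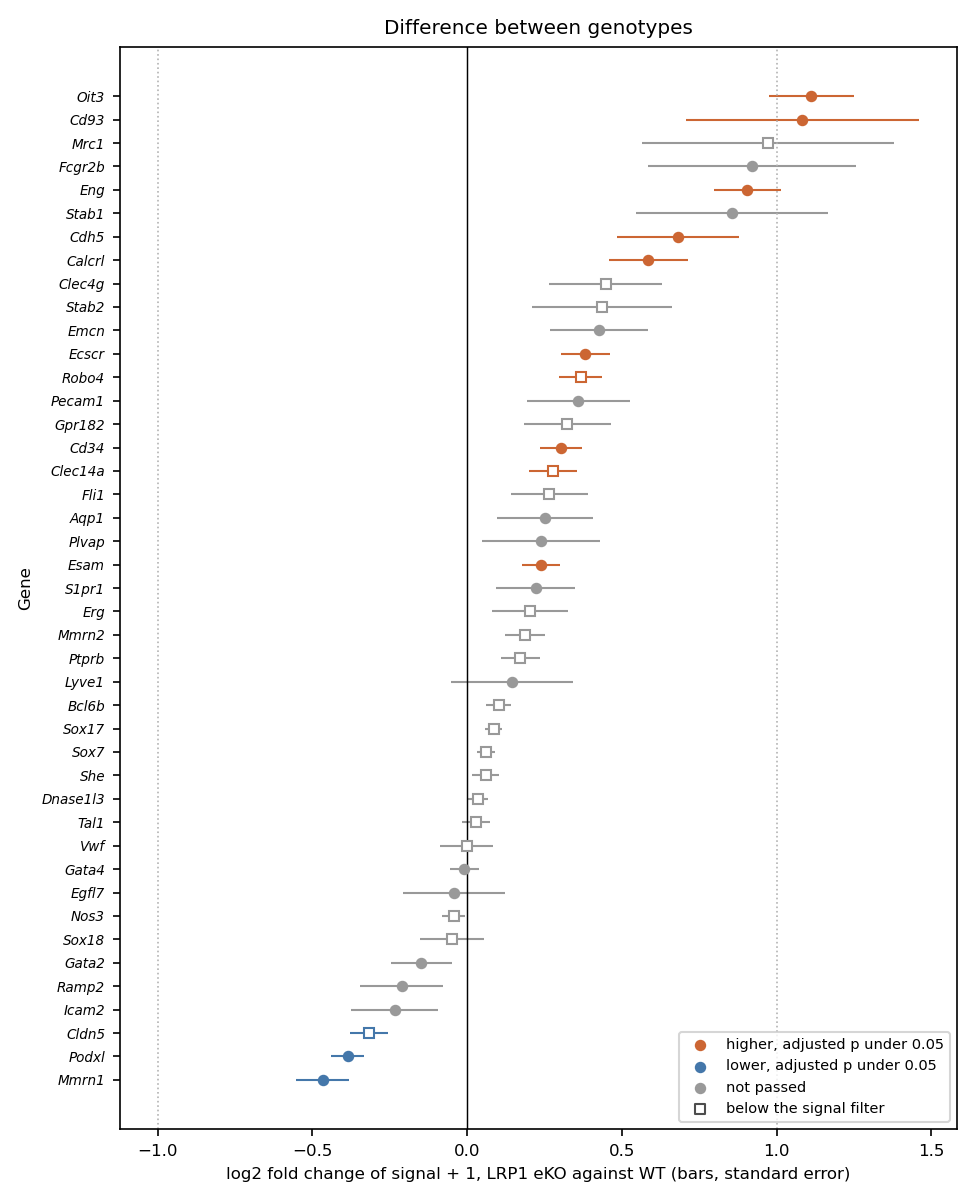
Log2 fold change of signal + 1 between LRP1 eKO and WT libraries for the 43 identity genes, with bars for the standard error, filled circles for genes that passed the signal filter and open squares for the others. Oit3 (1.11) and Cd93 (1.08) lie beyond the dotted line of a 2-fold increase, and Mmrn1 (-0.47) is the lowest.

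Of the 15 junction and surface genes, 11 passed the filter, 6 rose and 1 fell, where 19.0% and 22.2% of all genes tested did. Eng, also called endoglin, a co-receptor of the TGF-β and BMP family on ECs, had the largest change without overlap in this group. Its signals were 12.8, 13.8, 12.2 and 11.0 in WT replicates 1 to 4 and 27.5, 19.7, 27.5 and 22.5 in LRP1 eKO replicates 1 to 4. Every LRP1 eKO library was above every WT library, and the LRP1 eKO mean was 1.96 times the WT mean (log2 fold change 0.91, standard error 0.11, limma adjusted p = 0.000195). The gene lies at chr2:32646595-32682669 on the plus strand of GRCm38.

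Cd34, a sialomucin of vascular and stromal cells, showed signals of 123, 126, 132 and 107 in WT and 155, 141, 159 and 147 in LRP1 eKO libraries. The increase was small and without overlap (log2 fold change 0.30, standard error 0.07, limma adjusted p = 0.00610). Ecscr, a surface regulator of endothelial chemotaxis, measured 9.14, 9.43, 9.82 and 11.8 in WT and 14.4, 12.8, 13.6 and 12.7 in LRP1 eKO libraries, again without overlap (0.38, standard error 0.08, limma adjusted p = 0.00424). Esam, an adhesion molecule of endothelial tight junctions, rose by 0.24 on the log2 scale (standard error 0.06, limma adjusted p = 0.0120), from 13.9 to 16.3 across the WT libraries to 16.7 to 19.1 across the LRP1 eKO libraries. These 3 genes and Eng varied by at most 1.39 times among the LRP1 eKO libraries.

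Podxl, a sialomucin of the apical surface, fell. Its signals were 8.01, 8.12, 8.51 and 8.23 in WT and 5.68, 5.98, 6.15 and 6.41 in LRP1 eKO libraries, so that the mean was 73.7% of WT (log2 fold change -0.39, standard error 0.05, limma adjusted p = 0.000421). The highest LRP1 eKO library was below the lowest WT library, and the fold change lay between -0.41 and -0.36 when each library was left out in turn. Cldn5, a claudin of endothelial tight junctions, was the other lower gene of the group in the fit without the filter, with signals of 1.13, 0.967, 1.04 and 1.19 in WT and 0.826, 0.568, 0.716 and 0.583 in LRP1 eKO libraries (-0.32, limma adjusted p = 0.00688).

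The 2 genes of the EC junction that defined the isolation and the Cre driver varied among the LRP1 eKO libraries. Cdh5 measured 1.90, 2.27, 2.03 and 1.26 in WT and 4.99, 2.21, 4.65 and 2.94 in LRP1 eKO libraries, and replicate 2 of LRP1 eKO lay within the WT range. Cdh5 rose by 0.68 on the log2 scale (standard error 0.20, limma adjusted p = 0.0205), and the adjusted p was above 0.05 without LRP1 eKO replicate 1 or without replicate 3, at most 0.0567. Pecam1 measured 2.27, 2.50, 2.08 and 1.53 in WT and 3.85, 1.84, 3.61 and 2.79 in LRP1 eKO libraries. The groups overlapped through LRP1 eKO replicate 2, and the difference of 0.36 did not pass the test (limma adjusted p = 0.109). Emcn, an endothelial sialomucin that hinders leukocyte adhesion, had 4.86, 4.44, 4.05 and 2.86 in WT and 7.36, 4.33, 6.30 and 5.20 in LRP1 eKO libraries (0.42, limma adjusted p = 0.0546).

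Cd93, a C-type lectin-like receptor of ECs and myeloid cells at chr2:148436640-148443563 on the minus strand, had the widest range of the called genes. It measured 1.68, 1.83, 2.04 and 0.939 in WT and 7.82, 1.25, 7.38 and 4.39 in LRP1 eKO libraries. LRP1 eKO replicate 2 was below 3 of the 4 WT libraries, and the other LRP1 eKO libraries were above all of them. The mean was 3.22 times WT (log2 fold change 1.08, standard error 0.38, limma adjusted p = 0.0431; exact two-sided permutation test, p = 0.114). Leaving out any one library other than LRP1 eKO replicate 2 took the adjusted p above 0.05, up to 0.110, and it was 0.000477 without that replicate. It was also above 0.05 in the fit without the filter (0.0928) and with robust moderation (0.0815).

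Among the other junction and surface genes, Robo4, a guidance receptor that stabilizes vessels, and Clec14a, a C-type lectin of tumor and developing vessels, rose in the fit without the filter (0.37 and 0.28, limma adjusted p = 0.00676 and 0.0337). Clec14a lost its call when any one of 6 libraries was left out. Icam2, Ptprb and Plvap did not pass the test, with log2 fold changes between -0.23 and 0.24. Ptprb, the vascular phosphatase VE-PTP, did not overlap between the groups at signals below 0.58.

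**Figure D3:**
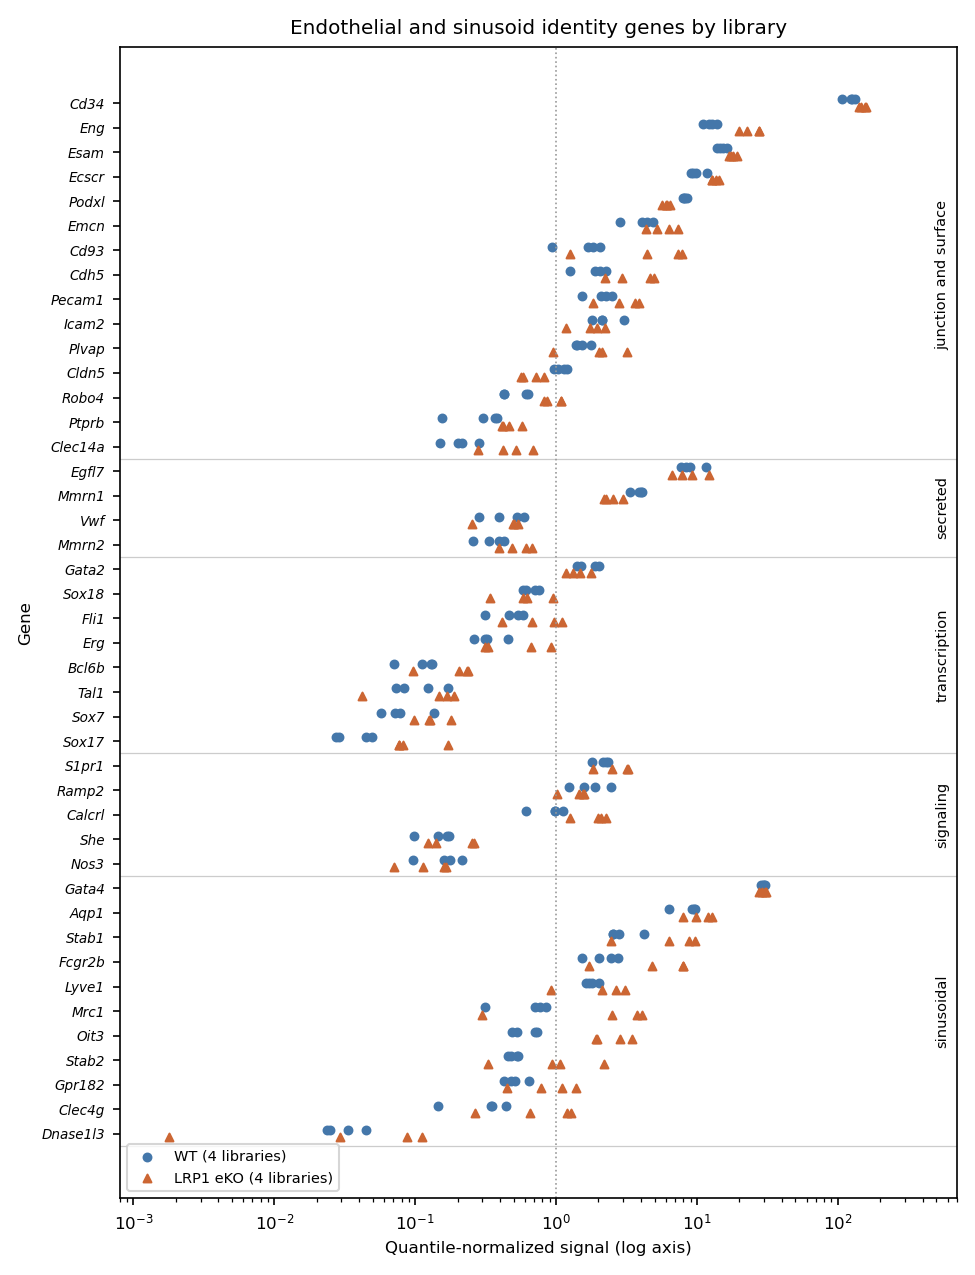
Quantile-normalized signal of the 43 identity genes in each of the 4 WT (circles) and 4 LRP1 eKO (triangles) libraries on a log axis, ordered within each role by mean signal, with a dotted line at 1. Points of Cd34 lie above 100 in every library, and those of Sox17 and Dnase1l3 lie below 0.18.

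Promoter sequence was examined for the genes with a window in the table used. The 250 bases before the start were available for 19 of the 43 genes in RefSeq on GRCm38.p6, 25 windows in all, and Cd93, Oit3 and the SoxF genes were not among them. Eng, Cldn5 and Stab1 are shown because they stand for a higher gene, a lower gene and a gene with wide spread, and they were chosen after their values were seen. Capitals mark matches of 6 motifs searched on both strands, the ETS letters GGAAGT, the composite of forkhead and ETS letters AACAGGAA, the GATA letters AGATAA, the SOX letters ACAATG, the forkhead letters TGTTTAC and the KLF letters CACCC. Each sequence is written 5′ to 3′ on the gene's strand. The window of Eng is chr2:32646345-32646594 (plus), that of Cldn5 is chr16:18776597-18776846 (plus), and that of Stab1 is chr14:31168642-31168891 (minus).
Eng: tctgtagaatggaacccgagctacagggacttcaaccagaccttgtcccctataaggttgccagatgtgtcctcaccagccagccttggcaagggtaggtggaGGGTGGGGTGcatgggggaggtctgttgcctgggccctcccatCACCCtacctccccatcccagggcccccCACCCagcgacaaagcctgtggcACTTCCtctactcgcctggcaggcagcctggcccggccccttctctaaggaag
Cldn5: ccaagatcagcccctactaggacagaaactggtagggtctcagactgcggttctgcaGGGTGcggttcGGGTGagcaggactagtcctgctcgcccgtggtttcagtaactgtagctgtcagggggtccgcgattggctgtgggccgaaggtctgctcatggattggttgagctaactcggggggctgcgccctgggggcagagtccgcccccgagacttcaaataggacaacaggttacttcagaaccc
Stab1: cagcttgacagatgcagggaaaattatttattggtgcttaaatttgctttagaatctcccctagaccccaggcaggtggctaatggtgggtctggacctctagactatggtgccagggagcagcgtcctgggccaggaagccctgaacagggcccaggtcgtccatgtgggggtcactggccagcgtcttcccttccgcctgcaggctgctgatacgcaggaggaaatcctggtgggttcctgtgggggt
The Eng window held the ETS letters once, from 53 bases before the start, and the KLF letters 4 times, and neighboring KLF matches joined in 1 run of capitals. Cldn5 held the KLF letters at 2 places and Stab1 held none of the 6. Over all identity gene windows, the ETS letters occurred in 24.0%, beside 19.7% of 32851 windows of all genes, and the KLF letters in 52.0% beside 52.0%. The composite letters were found in the windows of Calcrl, Egfl7, Emcn and Mrc1, 16.0% of member windows beside 2.25% of all. The SOX letters occurred in 16.0% beside 10.7%, the GATA letters in 8.0% beside 9.99% and the forkhead letters in 0 of 25 beside 3.17%. The matches describe these letters only.

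Of the 4 secreted genes, 2 passed the filter, 1 fell and 0 rose, where 22.2% of genes tested fell and 19.0% rose. Mmrn1, the matrix protein multimerin 1 of platelets and endothelium, had 3.90, 4.05, 3.98 and 3.34 in WT and 2.19, 3.01, 2.26 and 2.51 in LRP1 eKO libraries. No LRP1 eKO library reached a WT value, and the mean was 65.3% of WT (log2 fold change -0.47, standard error 0.09, limma adjusted p = 0.00226). Its relative Mmrn2, a ligand of Cd93 and Clec14a, measured 0.334, 0.425, 0.393 and 0.255 in WT and 0.610, 0.392, 0.672 and 0.484 in LRP1 eKO libraries and did not pass the test (0.19, limma adjusted p = 0.0671).

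Egfl7, a secreted factor of vessel tube formation, had the highest signal of this group. It measured 7.72, 8.41, 8.99 and 11.6 in WT and 12.2, 6.65, 9.25 and 7.81 in LRP1 eKO libraries, and the groups overlapped widely (-0.04, standard error 0.16, limma adjusted p = 0.849). Vwf, the von Willebrand factor of endothelial storage granules, averaged 0.450 under WT and 0.448 under LRP1 eKO.

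The endothelial transcription factors were near the floor. Of 8 genes only Gata2, a zinc finger factor of endothelial and blood cells, passed the filter, and 0 of 8 passed the test in either fit. Of all genes, 19.0% rose and 22.2% fell with the filter, and 12.0% rose and 15.3% fell without it. Gata2 measured 2.01, 1.89, 1.50 and 1.40 in WT and 1.31, 1.77, 1.18 and 1.47 in LRP1 eKO libraries (-0.15, limma adjusted p = 0.255). The smallest adjusted p belonged to Sox17, with 0.0288, 0.0448, 0.0275 and 0.0491 in WT and 0.0762, 0.0767, 0.171 and 0.0824 in LRP1 eKO libraries (0.09, limma adjusted p = 0.0558). The Sox17 groups did not overlap, at signals below 0.18 throughout.

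Bcl6b, a repressor found in ECs, measured 0.111, 0.132, 0.129 and 0.0704 in WT and 0.235, 0.235, 0.204 and 0.0962 in LRP1 eKO libraries. Sox7 measured 0.0780, 0.0575, 0.135 and 0.0724 in WT and 0.0988, 0.128, 0.179 and 0.126 in LRP1 eKO libraries. Both overlapped between the groups, and with Erg, Fli1, Sox18 and Tal1 they gave log2 fold changes between -0.05 and 0.26.

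Among the 5 signaling genes, 3 passed the filter, 1 rose and 0 fell, where 19.0% of genes tested rose and 22.2% fell. The gene that rose was Calcrl, which passed the filter through the LRP1 eKO libraries and 1 WT library. It encodes the calcitonin receptor-like receptor, which binds adrenomedullin together with the accessory protein Ramp2. Calcrl measured 0.975, 0.987, 1.11 and 0.607 in WT and 2.27, 1.25, 2.07 and 1.99 in LRP1 eKO libraries, and every LRP1 eKO library was above every WT library (log2 fold change 0.58, standard error 0.13, limma adjusted p = 0.00549). The mean was 2.06 times WT.

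Its partner Ramp2 measured 1.59, 1.24, 1.89 and 2.47 in WT and 1.54, 1.01, 1.46 and 1.57 in LRP1 eKO libraries, with a value of -0.21 that did not pass the test (limma adjusted p = 0.228). S1pr1, the sphingosine 1-phosphate receptor of ECs, measured 2.27, 2.14, 2.33 and 1.79 in WT and 3.20, 1.83, 3.26 and 2.50 in LRP1 eKO libraries (0.22, limma adjusted p = 0.187). The LRP1 eKO replicates other than replicate 2 were above all WT libraries for S1pr1. She, an adaptor protein, and Nos3, the endothelial nitric oxide synthase, averaged below 0.2 in both groups, and neither passed the test.

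Of the 11 sinusoidal genes, 6 passed the filter, 1 rose and 0 fell, where 19.0% of genes tested rose and 22.2% fell. In the fit without the filter 10 of 11 had a positive fold change, where 48.9% of genes did. Oit3, a secreted zona pellucida domain protein at chr10:59422958-59441778 on the minus strand, was the gene that rose. It measured 0.525, 0.713, 0.729 and 0.483 in WT and 3.46, 1.94, 2.83 and 1.91 in LRP1 eKO libraries. The groups were clearly separated, and the mean was 4.14 times WT (log2 fold change 1.11, standard error 0.14, limma adjusted p = 0.000221). Oit3 reached a signal of 1 in the LRP1 eKO libraries alone and so passed the filter through that group.

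The scavenger receptors were high in 3 of the 4 LRP1 eKO libraries. Stab1 measured 2.52, 2.52, 4.22 and 2.79 in WT and 9.67, 2.45, 8.71 and 6.36 in LRP1 eKO libraries, and LRP1 eKO replicate 2 was the lowest of all 8 libraries (0.86, standard error 0.31, limma adjusted p = 0.0503). Fcgr2b, the inhibitory Fc receptor, measured 2.45, 2.01, 2.76 and 1.52 in WT and 7.92, 1.72, 7.99 and 4.76 in LRP1 eKO libraries (0.92, standard error 0.34, limma adjusted p = 0.0512). Neither passed the test, and LRP1 eKO replicate 2 lay within or below the WT range for both.

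Mrc1, the mannose receptor, had the widest spread of the sinusoidal genes with a mean of at least 1. It measured 0.708, 0.770, 0.852 and 0.314 in WT and 4.06, 0.296, 3.74 and 2.50 in LRP1 eKO libraries, a range of 13.7 times within LRP1 eKO (0.97, standard error 0.41, limma adjusted p = 0.117). Stab2, the second stabilin, had 0.538, 0.459, 0.478 and 0.524 in WT and 2.18, 0.329, 1.07 and 0.938 in LRP1 eKO libraries (0.44, limma adjusted p = 0.196). For both, replicate 2 of LRP1 eKO was the lowest of the 8 libraries and the other LRP1 eKO libraries were above every WT library.

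Gata4, the transcription factor that directs sinusoidal differentiation, had the highest signal of the group and nearly the same value everywhere. It measured 28.4, 30.1, 29.3 and 30.6 in WT and 29.0, 30.2, 30.8 and 27.7 in LRP1 eKO libraries (-0.01, standard error 0.05, limma adjusted p = 0.897). Lyve1, a hyaluronan receptor, Clec4g, a sinusoidal lectin, Gpr182, a scavenging chemokine receptor, the water channel Aqp1 and the nuclease Dnase1l3 gave log2 fold changes between 0.03 and 0.45 that did not pass the test. Dnase1l3 averaged 0.0448, the lowest of the 43 genes.

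The LRP1 eKO libraries followed 1 order for most identity genes. This order was picked after the values of these genes were seen, so its share beside that of other genes is a description and no test. Replicates 1 and 3 were above replicate 4, and replicate 4 was above replicate 2, for 28 of the 43 genes (65.1%), where 13.5% of genes passing the filter had this order. It held for 11 of 15 junction and surface genes, 2 of 4 secreted genes, 3 of 8 transcription factors, 3 of 5 signaling genes and 9 of 11 sinusoidal genes. LRP1 eKO replicate 2 was the lowest of its group for 31 of 43 genes (72.1%), beside 24.4% of genes passing the filter and 25.8% of genes in the fit without it. WT replicate 4 was the lowest WT library for 28 (65.1%), beside 38.6% and 31.1%.

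Macrophage genes had the same order within LRP1 eKO. In a list of 15 macrophage and Kupffer cell genes, 14 had it, and the summed signal ran from 114 to 224 in WT and was 746, 53.5, 682 and 400 in LRP1 eKO replicates 1 to 4. Of the 10 of these genes that passed the filter, 1 rose (Csf1r, the receptor of the macrophage growth factor, limma adjusted p = 0.0299). Of all genes tested, 19.0% rose. All 10 had a positive fold change, where 48.4% of genes tested had one, and their median log2 fold change was 1.18. In the fit without the filter all 15 were positive, where 48.9% of genes were. In that fit 1 of the 15 rose, where 12.0% of genes rose. That gene was Clec4f (limma adjusted p = 0.0161), and Csf1r did not pass the test there. Of the Kupffer cell markers, Clec4f was listed at 0 in every WT library and lay between 0.124 and 0.826 in LRP1 eKO libraries, and Timd4 was listed at 0 in 7 of the 8 libraries. Other genes of this list lay higher. Mean signals under WT were 3.03 for Cd5l, 1.11 for Marco and 0.716 for Vsig4. Under LRP1 eKO the corresponding means were 12.3, 5.61 and 3.90, although replicate 2 of that genotype fell below every WT library for each gene. The differences of Cd5l, Marco and Vsig4 did not pass the test. In WT libraries the macrophage sum was lowest in replicate 4. Mrc1 (0.314), Fcgr2b (1.52), Cd93 (0.939) and Lyve1 (1.63) were also lowest there, and Stab1 was lowest in WT replicate 2 (2.52). This was not particular to genes known in macrophages. WT replicate 4 was the lowest WT library for 28 of all 43 identity genes, 5 of 5 mesothelial genes and 24 of 38 further endothelial genes. The shares of all genes were 38.6% past the filter and 31.1% without it. The part of macrophage RNA in the signals of the identity genes was not tested. The order was seen in 1 of 5 mesothelial genes and in 11 of 38 further endothelial genes. The targeted gene Lrp1 had it too, with 6.01, 2.16, 5.15 and 4.32 in LRP1 eKO replicates 1 to 4.

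**Figure D4:**
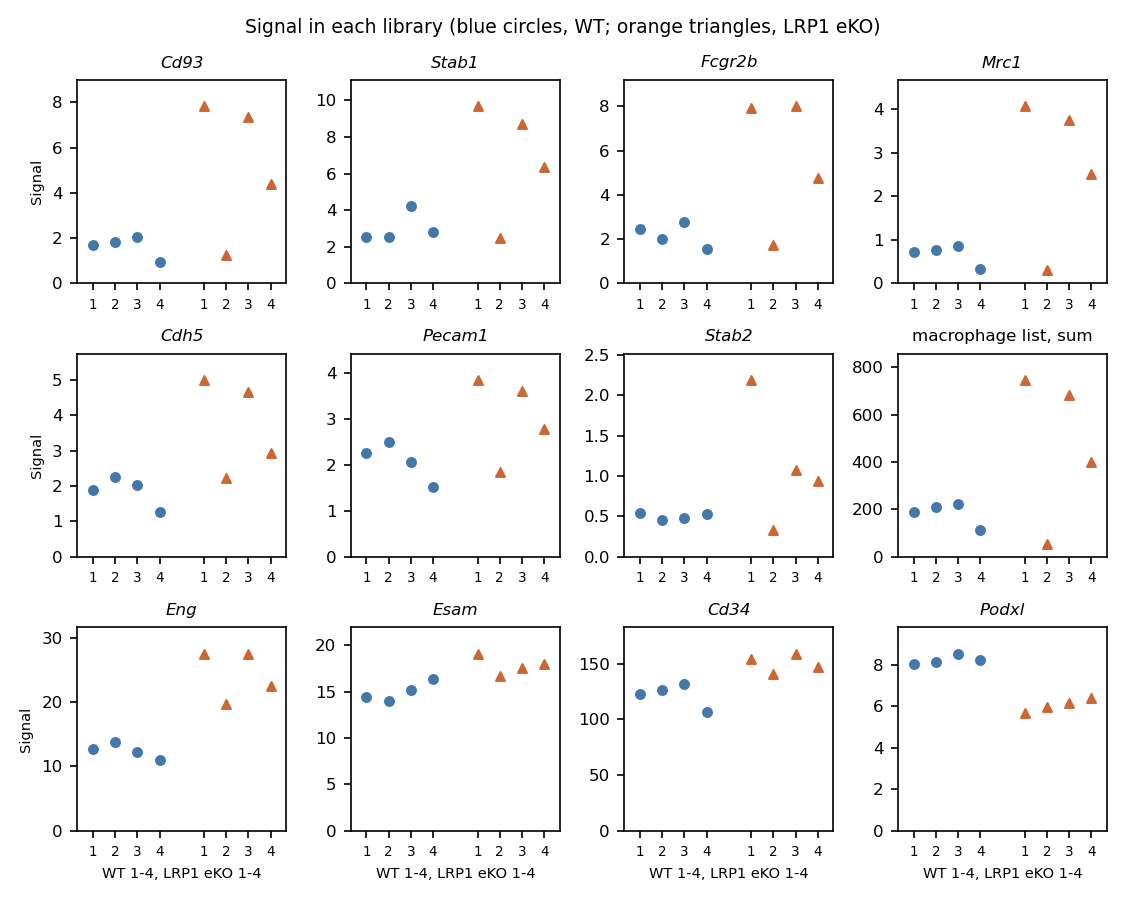
Signal of 11 identity genes and the summed signal of 15 macrophage genes in each library, with WT replicates 1 to 4 on the left and LRP1 eKO replicates 1 to 4 on the right of each panel. Within LRP1 eKO, replicate 2 is the lowest for Cd93, Stab1, Fcgr2b and Mrc1 and for the macrophage sum, which is 53.5 there and 746 in replicate 1, and Podxl is lower in all 4 LRP1 eKO libraries.

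The spread within LRP1 eKO differed between identity genes. The ratio of the highest to the lowest LRP1 eKO library was 62.6 for Dnase1l3, at signals of at most 0.112, then 13.7 for Mrc1, 6.64 for Stab2, 6.24 for Cd93, 4.80 for Clec4g, 4.65 for Fcgr2b, 4.51 for Tal1 and 3.94 for Stab1. It was 1.11 times for Gata4, 1.13 for Cd34, Ecscr and Podxl, and 1.14 for Esam.

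LRP1 eKO replicate 2 was singled out because it was the lowest for most of these genes, so leaving it out raises their fold changes by construction. The counts of identity genes that rose or were separate are raised in the same way. The library was not picked on all genes, so the shares beside these counts give no test. Without it, 15 of the 23 genes rose and 2 fell, where 17.2% of genes tested rose and 20.8% fell. With the 2-fold condition, 4 rose (Cd93, Oit3, Stab1 and Fcgr2b), beside 1.53% of genes tested. The log2 fold changes were then 1.51 for Cd93, 1.21 for Stab1 and 1.30 for Fcgr2b, and Pecam1 rose by 0.52 (limma adjusted p = 0.0116). Below the filter, Mrc1 rose by 1.41 and Stab2 by 0.64 (limma adjusted p = 0.00213 and 0.0322). WT and the remaining LRP1 eKO libraries were separate for 29 of the 43 genes, beside 38.4% of genes in the fit over all of them. Podxl, Mmrn1 and Cldn5 still fell, and Eng and Oit3 changed by less than 0.1 on the log2 scale.

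**Figure D5:**
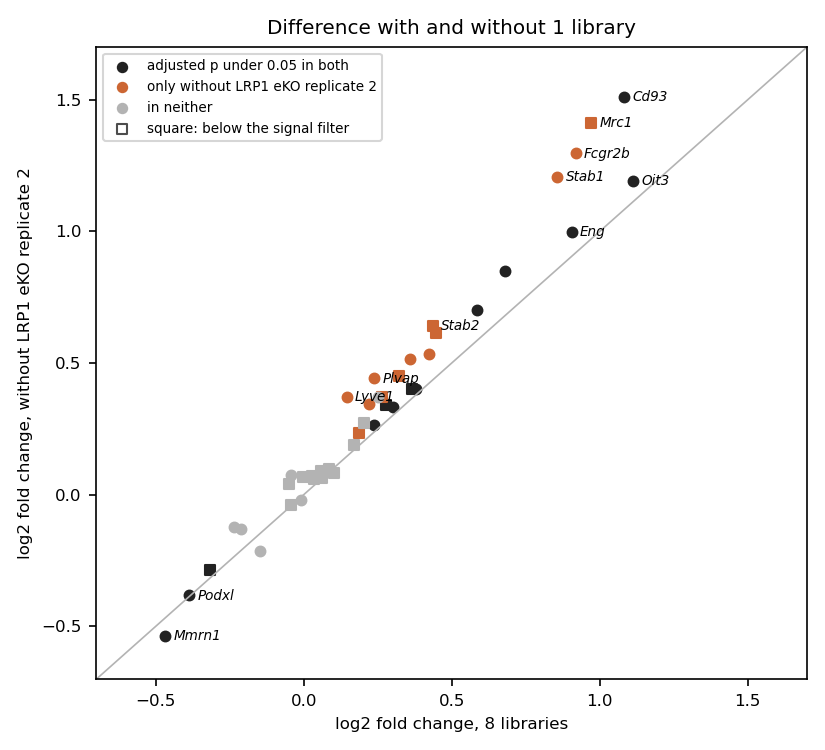
Log2 fold change of each identity gene with all 8 libraries (horizontal axis) against the same without LRP1 eKO replicate 2 (vertical axis), on a line of equal values, with squares for genes below the signal filter and colors for the calls. Cd93 (1.08 to 1.51), Mrc1 (0.97 to 1.41), Fcgr2b (0.92 to 1.30) and Stab1 (0.86 to 1.21) lie farthest above the line.

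Other endothelial genes were counted for context. Of 38 further pan-endothelial genes, 23 passed the filter, 9 rose and 4 fell, with a median of 0.16, and the counts of this and the next lists stand beside 19.0% of all genes tested that rose and 22.2% that fell. The 3 with the smallest adjusted p were Palmd, a palmdelphin (-0.56), the shear-responsive factor Klf4 (0.81) and the VEGF receptor Flt1 (0.60). Among 16 tested of 20 further sinusoidal genes, 5 rose and 5 fell, and the smallest adjusted p values were those of Ehd3 (-0.89), Ccdc80 (-0.58) and Maf (-0.49). Of these, Ehd3, an endocytic protein of the sinusoid, fell from 29.1 ± 0.705 (SD, n = 4) to 15.2 ± 0.595 (SD, n = 4).

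Zone markers were split too. Of 9 genes of pericentral endothelium 6 were tested, 3 rose and 2 fell, and the smallest adjusted p values were those of the fatty acid binding protein Fabp4 (-1.06), the Wnt co-agonist Rspo3 (0.47) and thrombomodulin, Thbd (0.50). Of 10 periportal and arterial genes 3 were tested, and only Ltbp4, a TGF-β binding protein, fell (-0.75). Of 5 lymphatic genes 2 were tested, and both Thy1 (-0.72) and Pdpn (-0.30) fell, while the lymphatic master factor Prox1 averaged below 0.31 in both groups. Thy1 and Pdpn are also known in fibroblasts and mesothelium.

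Lists of other cell types differed between the genotypes as well. All 6 tested hepatocyte genes fell (median -1.53), with sums of 1493 to 1544 in WT and 615 to 901 in LRP1 eKO libraries that were mostly the transferrin gene Trf (1358 to 1451 and 581 to 862). All 4 tested skeletal muscle genes fell (median -1.89). All 4 smooth muscle genes rose (median 0.36). Of the 5 mesothelial genes 2 rose (Msln and Upk1b), with sums of 2209 to 2662 in WT and 2880 to 3196 in LRP1 eKO libraries. Of 9 tested stellate cell and fibroblast genes 2 rose and 2 fell, and of 3 tested cholangiocyte genes 1 fell. Of 2 tested erythroid genes 1 fell, the 1 tested neutrophil gene rose and 0 of 7 lymphoid genes passed the filter. The part of these differences in the values of the identity genes was not tested.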

How the data were processed

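The libraries were 4 WT and 4 LRP1 eKO, assigned by the sample titles, and every value column was matched to a library. The authors deposited a quantile-normalized signal for 22520 genes, and the unit before that step is not stated. The submitters' processing notes name TopHat2, Cufflinks and mm10, whereas the paper's methods describe other tools, and neither describes this table. Quantile normalization removes any global shift between libraries, the sums of signal were 484445 to 485947, and depth cannot be read from it. No counts were used, so no counting interval was computed.

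From the signal, log2(signal + 1) was fitted by genotype alone, using limma 3.58.1 (R 4.3.3) with a trend of variance on mean. P-values were adjusted by Benjamini-Hochberg over the 11391 genes whose signal reached 1 in 4 or more libraries. Members below this filter were taken from a fit over 17959 genes without it. The exact two-sided permutation test has 70 arrangements of 4 against 4 libraries and cannot give a p below 0.029. The fit was tested on simulated data. The thresholds were an adjusted p of 0.05 and 2-fold, as in the study's methods.

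The 43 members, the gene lists and the tests were chosen with earlier results of these data known. Values in every library were given for Pecam1, Cdh5, members past the 2-fold threshold, up to 3 members of each role group with the smallest adjusted p, and the highest member of each group that did not pass. Cd34, Esam, Cldn5, Mrc1, Stab2 and other members named with values outside this rule, and the promoters shown, were picked with their values known. The rule for promoters named members past 2-fold and the SoxF genes, which had no window in the table used. Flt4, Wnt2, Rspo3 and Reln stand in 2 lists each. Positions are from GENCODE M21 on GRCm38, where 21740 of the gene identifiers were found. Of the list genes, 7 were matched by identifier, and Acta1 was not matched. For 24 of the 25 promoter windows, the first 30 transcribed bases were found in a GENCODE transcript. Replicate numbers showed no pairing of the libraries, and a pairing by litter was not tested. The alternatives were other pseudocounts, filters, moderation, centring and array weights, the replicate block and leaving out each library. Plots used matplotlib 3.10.9 (Python 3.11.15).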

Additional observations from a re-analysis of the deposited data

Results flagged for a closer look

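Dixon's ratio of a sample's gap to its group's range was examined for the 43 identity genes in both groups of 4 libraries, 86 groups in all, and 3 exceeded the 95% critical value, where chance flags about 1 group in 20. For Vwf, LRP1 eKO replicate 2 was far below the other LRP1 eKO libraries (ratio 0.850). For Sox17, LRP1 eKO replicate 3 was far above the others (0.932), at signals below 0.18. For Aqp1, WT replicate 4 was far below the other WT libraries (0.856).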

How the results depend on the processing

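Of the 8 identity genes that rose at an adjusted p below 0.05, 4 were counted with a minimum mean signal of 5, which tests 8318 genes, 14 with array weights, 15 without LRP1 eKO replicate 2 and 16 without both that library and WT replicate 4, and the count lay between 6 and 15 when 1 library was left out. The 2 genes that fell were 1 with the minimum mean of 5. The 2 genes that rose past 2-fold (Cd93 and Oit3) became 0 with a pseudocount of 5, 1 without the filter, 0 with the minimum mean of 5, 1 with robust moderation, 4 with array weights, 0 after centring on the other endothelial genes, 4 without both libraries, and between 0 and 4 when 1 library was left out. The median fold change of 0.25 lay between 0.12, after centring on the other endothelial genes, and 0.37, without LRP1 eKO replicate 2. Centring on the other endothelial genes moved the median of all genes from -0.0095 to -0.15 and the share of calls that were higher from 46.1% to 17.5%, and under it Dnase1l3 changed from 0.03 to -0.10 and Esam and Clec14a lost their calls. The cause of these changes was not tested.

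Replicate numbers were shared between the groups, but the correlations of same-numbered libraries were -0.09, -0.13, 0.18 and 0.04 and showed no pairing by number. A pairing by litter or preparation was not tested. With the replicate block, 11 identity genes rose and 2 fell, and 2 rose past 2-fold. The depth is unknown, so that differences at signals below 1 could not be set against counting error.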
